A study of Mus musculus with 13 samples.

Results

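Guidance cues and their receptors were examined in mouse endothelial cells (ECs) from tumors and from stem cell cultures. In both sources, a group made to lack Apelin, the secreted ligand of the receptor Aplnr, was compared with controls. All gene symbols of the class 3 to class 7 semaphorins, plexins A to D, Slit1 to Slit3, Robo1 to Robo4, netrins, Unc5 receptors, ephrins and Eph receptors were taken from the count tables, which gave 66 genes of 25715 listed. They were 20 semaphorins, 9 plexins, 7 Slit and Robo genes, 8 netrin and Unc5 genes, 8 ephrins and 14 Eph receptors, and 35 of them encode ligands. The 13 RNA-seq libraries form a tumor set and a sprout set. In the tumor set, 100 CD31+ CD105+ cells per library were sorted from E0771 mammary tumors, a mouse breast cancer cell line grown in C57BL6/J mice whose age is not given in the sources used here. The Apelin KO group (n = 3) came from Apln-/- mice with tumors of shApln cells, and the Apelin WT group (n = 6) from wild-type mice with tumors of shRenilla cells, so that Apelin was removed from the host and the tumor cells together. In the sprout set, CD31+ cells were sorted from vessels sprouting out of embryoid bodies, which are aggregates of differentiating mouse embryonic stem cells, here of a female C57BL/6x129 background. All 4 sprout cultures received 30 ng/ml VEGFA164 after transfer to collagen gel on day 8. The groups labelled AplnSense and AplnAntiSense (n = 2 each) derive from sister cells with a gene trap in Apln, in the disrupting orientation and reverted by Cre. By the study's figure legends the first received DMSO and the second Apelin (1000 nM in the protocol), so genotype and added Apelin differed together and cannot be told apart, and the labels do not assign these additions to libraries. Nothing in the labels says whether replicates were separate animals or cultures, so p-values measure the spread between these libraries.

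Axon guidance molecules also steer blood vessels. Class 3 semaphorins are secreted and signal through neuropilins with plexins, whereas membrane-bound semaphorins bind plexins directly, and Plxnd1, the main endothelial plexin, restrains and orients sprouts. Slits bind Robos, netrins bind Unc5 receptors and Dcc, and ephrins on one cell bind Eph receptors on its neighbor, with Efnb2 marking arteries and Ephb4 marking veins.

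Total counts per library were 4661044 to 14455093 in the tumor set and 12327030 to 16804071 in the sprout set, where 3 counts corresponded to 0.211 to 0.596 and 0.177 to 0.244 CPM (counts scaled to the library total after TMM normalization). Apln itself was 2.44 to 12.1 CPM in the Apelin KO libraries and 416 to 1033 CPM in the Apelin WT libraries. In the sprout set, Apln was 66.1 and 80.2 CPM in the libraries labelled AplnSense and 58.2 and 65.9 CPM in those labelled AplnAntiSense. Its log2 fold change was 0.24 (edgeR adjusted p = 0.367), so these counts do not show the loss that the label of a disrupted gene implies. The paper reports from RT-qPCR in the stem cells that the trap, which sits in an intron, disrupted Apln expression. Counts over the whole gene do not separate intact from trapped transcripts, so they do not measure intact Apln. The sorted cells carried endothelial transcripts: the 12 endothelial markers summed to 8392 to 14152 CPM per tumor library. In the sprout set they summed to 646 and 869 CPM in the libraries labelled AplnSense and to 2580 and 2470 CPM in those labelled AplnAntiSense, with all 12 lower and 11 of them past the thresholds given below. The sum of 7 pluripotency markers went the other way, with 4867 and 4760 CPM against 1789 and 2986 CPM. Of the 4 cardiac and muscle markers 2 were called lower (Tnnt2 and Actc1), whereas Myl7 had the opposite sign (log2 fold change 0.73) and was not called. The sum of the 4 was 19.3 and 21.8 CPM against 60.8 and 41.6 CPM. Of the 8 neural markers tested, 5 were above 0 and 3 below, and 1, Tubb3, was called higher. The 9 neural markers listed summed to 396 and 479 CPM against 515 and 478 CPM. Fewer ECs among the sorted cells and less RNA of a gene per EC cannot be told apart in these bulk libraries, and this holds for every sprout result that follows.

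In sprout ECs, 4 semaphorins, 3 plexins, 2 Robos, Unc5b and 2 ephrins were lower in the libraries labelled AplnSense, and no Slit, netrin or Eph receptor was called in either direction. A gene was called when edgeR's quasi-likelihood test gave an adjusted p below 0.05 over all genes tested and the log2 fold change exceeded 1 in size. Of the 66 members, 62 passed the count filter and 12 were called lower, beside 441 of 14557 genes or 3.03% of all genes tested. The called members were Sema3a, Sema3f, Sema6b, Sema6d, Plxna2, Plxnc1, Plxnd1, Robo3, Robo4, Unc5b, Efna1 and Efnb2. None of the 62 was called higher, beside 0.852% of all genes tested, whereas 22 were lower and 6 higher at an unadjusted p below 0.05, beside 14.3% and 12.4% of all genes tested. DESeq2 called 15 lower, the 12 among them, and none higher, beside 4.68% and 1.47% of the genes to which it gave an adjusted p. Without the fold threshold, 15 members were lower (4.3% of all genes tested) and 1, Sema3e, was higher (1.92% of all genes tested). The median log2 fold change of the 62 was -0.53, compared with 0.01 over all genes tested, and 47 were below 0, beside 49.5% of all genes tested. Libraries of the 2 groups did not overlap for 36 members, 25 of them lower (29.6% of all genes tested) and 11 higher (31.0% of all genes tested) in the libraries labelled AplnSense. The count of 12 depended on single libraries, as did the 441 genes called lower over the whole table. It was 5 without AplnSense replicate 1 (Efna1, Efnb2, Plxnd1, Sema6d and Sema3g), 10 without AplnSense replicate 2, and 1 without AplnAntiSense replicate 1, with Plxnd1 alone remaining. It was 12 without AplnAntiSense replicate 2, of which 10 were the same genes. The genes called lower over the whole table were 136, 548, 135 and 546 in these fits, in the same order. The called members fell 2.24-fold to 4.65-fold, and only Sema6d and Plxnd1 were further below 0 than the median of the 12 endothelial markers (-1.96). The part of the difference in endothelial marker level in these calls was not tested.

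**Figure D1:**
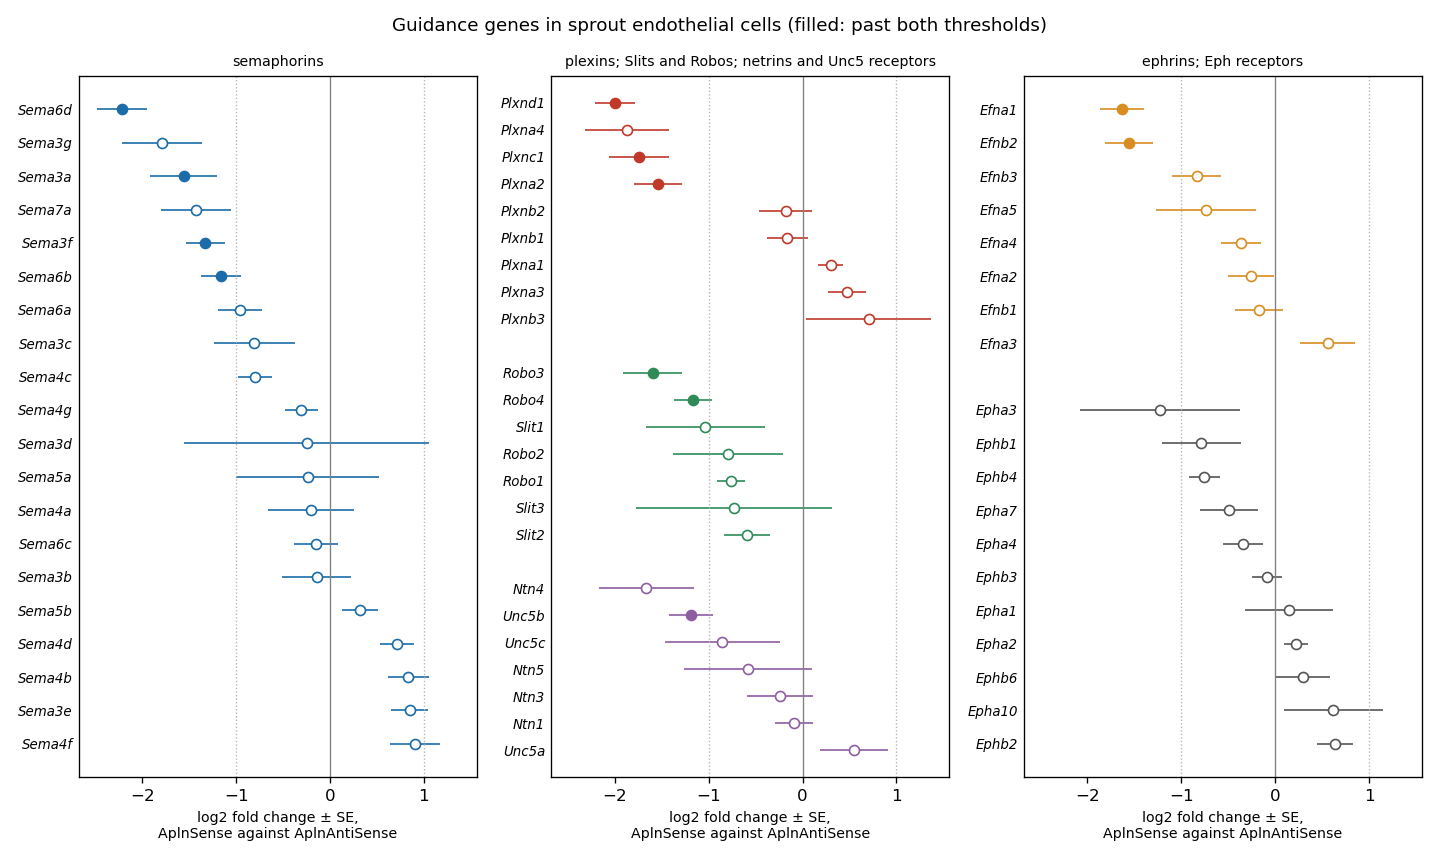
Log2 fold change (x axis, libraries labelled AplnSense over AplnAntiSense) of the 62 tested guidance genes in sprout ECs, with bars for the SE and filled points for the 12 called genes. Filled points lie between -1.16 and -2.22 in each class except the Eph receptors, and open points to the right of 0 include class 4 semaphorins, Sema3e, Plxna1 and Plxna3.

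Plexins differed from each other. Plxnd1, the receptor of Sema3e and, with neuropilins, of other class 3 semaphorins, was 211 and 291 CPM in the libraries labelled AplnSense and 1134 and 874 CPM in those labelled AplnAntiSense. Both AplnSense values lie below both AplnAntiSense values, and the gene fell 4.00-fold (log2 fold change -2.0 ± 0.21 SE, edgeR adjusted p = 0.00527). Plxna2, an A-class plexin that binds class 6 semaphorins and serves neuropilins, was 10.2 and 15.8 CPM against 42.4 and 33.1 CPM (log2 fold change -1.54 ± 0.26, adjusted p = 0.0188). Plxnc1, the receptor of Sema7a, was 7.86 and 4.81 CPM against 25.3 and 17.1 CPM (-1.74 ± 0.32, adjusted p = 0.0260). Again the groups did not overlap for either gene. Plxna4, a receptor of Sema3a and Sema6a, was 3.32 and 5.30 CPM against 21.4 and 9.77 CPM (-1.87 ± 0.45) and missed the threshold with an edgeR adjusted p of 0.0590, whereas DESeq2 gave 0.00184. The other plexins had values on both sides of 0. Plxna1 was 269 and 265 CPM against 230 and 203 CPM (0.30 ± 0.14, adjusted p = 0.206). Plxna3 was 40.8 and 29.1 CPM against 24.8 and 25.4 CPM (0.48 ± 0.20, adjusted p = 0.183). Among the B-class plexins, which bind class 4 semaphorins, Plxnb2 was 151 and 179 CPM against 239 and 135 CPM (-0.18 ± 0.28, adjusted p = 0.727), with its highest and lowest values in the same group. Plxnb1 was 66.5 and 50.3 CPM against 76.8 and 53.8 CPM, so the groups overlapped for both.

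The stretch upstream of the start is printed for Plxnd1, Efnb2 and Unc5b, which have the highest mean level per transcript length among all members in the sprout set and were called together. The windows hold the 250 bases before the RefSeq start (GRCm38.p6, minus strand), at chr6:115995006-115995255 for Plxnd1, chr8:8661243-8661492 for Efnb2 and chr10:60831582-60831831 for Unc5b, and are written 5′ to 3′ with capitals on 3 words of 6 letters found on either strand, which do not overlap each other here and were chosen after members' windows had been searched. They are CAGGAA, which contains the core that ETS factors read, CCGGAA, another word with that core, and GGGCGG, the GC box read by Sp factors.
Plxnd1, minus strand: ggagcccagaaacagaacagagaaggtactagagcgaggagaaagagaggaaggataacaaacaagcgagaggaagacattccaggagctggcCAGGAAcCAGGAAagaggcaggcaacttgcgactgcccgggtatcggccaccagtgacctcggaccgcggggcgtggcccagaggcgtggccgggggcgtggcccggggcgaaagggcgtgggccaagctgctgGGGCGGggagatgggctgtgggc
Efnb2, minus strand: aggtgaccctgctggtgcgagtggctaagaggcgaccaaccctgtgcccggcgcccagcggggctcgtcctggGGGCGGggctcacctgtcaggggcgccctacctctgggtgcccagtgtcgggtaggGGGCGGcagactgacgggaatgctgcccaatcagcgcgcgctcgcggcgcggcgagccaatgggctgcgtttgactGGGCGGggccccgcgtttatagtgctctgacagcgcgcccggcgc
Unc5b, minus strand: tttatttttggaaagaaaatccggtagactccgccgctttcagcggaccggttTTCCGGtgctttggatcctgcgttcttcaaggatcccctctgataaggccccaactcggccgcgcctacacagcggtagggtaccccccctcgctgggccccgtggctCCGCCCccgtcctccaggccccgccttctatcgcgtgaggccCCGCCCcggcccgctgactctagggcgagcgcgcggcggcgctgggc
The Plxnd1 window contains CAGGAA 2 times and GGGCGG 1 time, with 16 CpG pairs. The Efnb2 window contains GGGCGG 3 times and neither ETS-type word, with 27 CpG pairs, and the Unc5b window contains CCGGAA 1 time and GGGCGG 2 times, also with 27 CpG pairs. Over 32851 such windows of all genes, CAGGAA occurs in 25.7%, CCGGAA in 12.03% and GGGCGG in 32.7%. RefSeq windows were matched for 57 of the 66 members, as 73 windows, and GGGCGG occurs in 69.9% of these, CAGGAA in 19.2% and CCGGAA in 9.59%. Among the 11 called genes with a window, GGGCGG was found upstream of 9, CAGGAA upstream of 4 (Efna1, Plxnd1, Robo4 and Sema3a) and CCGGAA upstream of 1. These are matches of letters in short windows and say nothing of binding.

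**Figure D2:**
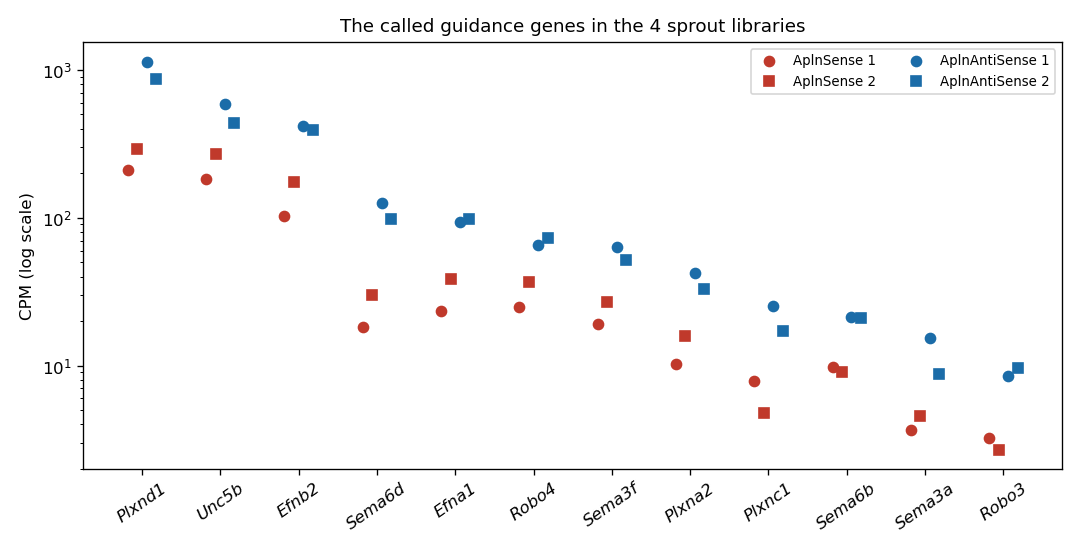
CPM (y axis, log scale) of the 12 called guidance genes (x axis, ordered by the AplnAntiSense mean) in each of the 4 sprout libraries, with the group labels as colors and the replicate as the symbol. For each gene both AplnSense points lie below both AplnAntiSense points, from Plxnd1 at 211 to 1134 CPM down to Robo3 at 2.69 to 9.60 CPM.

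Semaphorins had members on both sides of 0. The lowest fold change of any member was that of Sema6d, a transmembrane semaphorin that binds Plxna1, with 18.1 and 30.0 CPM in the libraries labelled AplnSense and 125 and 97.9 CPM in those labelled AplnAntiSense. This 4.65-fold fall (log2 fold change -2.22 ± 0.27, edgeR adjusted p = 0.0124) exceeded the spread in both groups. Its relative Sema6b was 9.75 and 9.04 CPM against 21.2 and 20.9 CPM (-1.16 ± 0.22, adjusted p = 0.0257), close within each group. Sema6a, a ligand of Plxna2 and Plxna4, was 37.2 and 24.3 CPM against 67.2 and 52.9 CPM (-0.96 ± 0.23) and missed the threshold (adjusted p = 0.0580). Of the 7 class 3 genes, 2 were called, beside 3.03% of all genes tested. Sema3f, a secreted repellent that signals through Nrp2, was 19.1 and 27.0 CPM against 63.4 and 52.1 CPM (-1.33 ± 0.21, adjusted p = 0.0158). Sema3a, the classical repellent that signals through Nrp1, was 3.66 and 4.56 CPM against 15.4 and 8.72 CPM (-1.56 ± 0.35, adjusted p = 0.0431), with AplnAntiSense replicate 1 above replicate 2, and its call was lost when the RSEM estimated counts were used. Sema3g, which is known from arterial endothelium, was 14.2 and 32.7 CPM against 86.3 and 74.9 CPM. The groups are apart, but the AplnSense libraries differ widely from each other, and the edgeR adjusted p was 0.0958 (-1.79 ± 0.43), whereas DESeq2 gave 1.46e-05. Sema7a, a membrane-anchored ligand of integrins and Plxnc1, was 4.54 and 9.94 CPM against 17.7 and 21.1 CPM (-1.43 ± 0.37), with an edgeR adjusted p of 0.0710 and a DESeq2 adjusted p of 0.00661.

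A smaller number of semaphorins was higher in the libraries labelled AplnSense, none of them past both thresholds. Sema3e, the ligand that binds Plxnd1 without a neuropilin, was 32.6 and 40.4 CPM against 18.5 and 22.1 CPM (0.85 ± 0.20), with an edgeR adjusted p of 0.0453 but a fold change of 1.80. It was thus higher by the adjusted p alone in the libraries in which Plxnd1 was lower. The 3 class 4 genes Sema4b, Sema4d and Sema4f had values of the same sign. Sema4b was 145 and 118 CPM against 59.0 and 88.3 CPM (0.84 ± 0.22, adjusted p = 0.0698). Sema4d, the ligand of Plxnb1, was 74.3 and 58.7 CPM against 35.8 and 45.4 CPM (0.71 ± 0.18, adjusted p = 0.0600), and Sema4f, the least abundant of them, gave 0.90 ± 0.27. In none of the 3 did the groups overlap, beside 31.0% of all genes tested that lay wholly higher. Sema4c, a ligand of Plxnb2, had the opposite sign within this class, with 36.6 and 46.3 CPM against 80.3 and 63.4 CPM (-0.80 ± 0.18, edgeR adjusted p = 0.0450).

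All 7 Slit and Robo genes had values below 0, beside 49.5% of all genes tested, and 2 Robos were called, beside 3.03% of all genes tested. Robo4, the Robo largely restricted to endothelium, was 24.9 and 36.7 CPM in the libraries labelled AplnSense and 65.0 and 72.6 CPM in those labelled AplnAntiSense (-1.16 ± 0.20, edgeR adjusted p = 0.0224). Robo3, known from commissural neurons, was 3.25 and 2.69 CPM against 8.44 and 9.60 CPM (-1.60 ± 0.32, adjusted p = 0.0298). The groups were apart for both genes. In the GENCODE annotation of GRCm38, Robo4 (chr9:37401897-37415115, plus strand) and Robo3 (chr9:37415669-37433246, minus strand) end toward each other with 553 bases between them. Whether reads were counted by strand is not given in the sources used here, so reads running past one gene into the other are a limit on Robo3, the much less abundant of the pair. Robo1, the broadly expressed Slit receptor, was 36.5 and 35.1 CPM against 65.0 and 56.6 CPM (-0.76 ± 0.15, adjusted p = 0.0298), a fall of 1.70-fold that stayed short of the fold threshold. The ligand Slit2 was 35.5 and 54.0 CPM against 77.2 and 57.4 CPM (-0.59 ± 0.24, adjusted p = 0.182), with AplnSense replicate 2 close to AplnAntiSense replicate 2.

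Of the netrins and their receptors, Unc5b was called. Unc5b, the netrin receptor of tip cells and arteries, was 182 and 270 CPM against 592 and 438 CPM, a 2.28-fold fall (-1.19 ± 0.24, edgeR adjusted p = 0.0394) in libraries that did not overlap. Like that of Sema3a, this call was lost with RSEM estimated counts. Over the alternatives that kept all libraries, the log2 fold change stayed at -1.21 to -1.18 for Unc5b and at -1.57 to -1.51 for Sema3a. Ntn1, the founding netrin, was level at 28.2 and 21.6 CPM against 27.2 and 25.8 CPM (-0.09 ± 0.20, adjusted p = 0.805). Ntn4, a laminin-like netrin found in vessel walls, was 0.745 and 0.896 CPM against 3.24 and 1.94 CPM (-1.66 ± 0.51, adjusted p = 0.0923), which is 11 to 55 counts per library.

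Of the ephrins, 2 fell, and no Eph receptor was called. Efna1, a ligand of Epha2 that is induced in angiogenic endothelium, was 23.5 and 38.3 CPM in the libraries labelled AplnSense and 93.0 and 97.8 CPM in those labelled AplnAntiSense, a 3.09-fold fall (-1.63 ± 0.23, edgeR adjusted p = 0.0154). Efnb2, the arterial ephrin, was 102 and 174 CPM against 418 and 394 CPM, a 2.93-fold fall (-1.55 ± 0.26, adjusted p = 0.0272). Neither gene overlapped between groups. In the same libraries 3 of 5 arterial markers were called lower (sum 153 and 309 CPM against 869 and 832 CPM), beside 3.03% of all genes tested, and their median log2 fold change was -1.85. The general endothelial markers had 11 of 12 called and a median of -1.96, and the venous markers had 1 of 3 called (Aplnr, -2.25) and all 3 below 0. The part of these markers in the values of Efnb2 was not tested. Efnb1, its broadly expressed relative, was 40.4 and 52.5 CPM against 64.5 and 40.03 CPM (-0.17 ± 0.26, adjusted p = 0.705), with overlapping groups. None of the 11 Eph receptors tested was called in either direction by edgeR or DESeq2, and 1 was lower and 1 higher at an unadjusted p below 0.05, near the 14.3% and 12.4% of all genes tested. Ephb4, the venous receptor of Efnb2, was 82.2 and 111 CPM against 169 and 156 CPM, a 1.69-fold fall (-0.75 ± 0.17) with an adjusted p of 0.0410. Epha2, the main endothelial A-type receptor, was 253 and 240 CPM against 206 and 216 CPM (0.23 ± 0.13, adjusted p = 0.302), slightly higher in both libraries labelled AplnSense. Ephb2, a neural and epithelial B-type receptor, was 42.6 and 40.5 CPM against 30.5 and 22.8 CPM (0.64 ± 0.19, adjusted p = 0.0857).

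Coreceptors and downstream effectors of these receptors were taken from a fixed list of 70 genes, of which 66 were tested in sprout ECs. Of these, 8 were called lower and none higher by edgeR, beside 3.03% and 0.852% of all genes tested. At an unadjusted p below 0.05 there were 26 lower and 4 higher, beside 14.3% and 12.4% of all genes tested, and the median log2 fold change of the list was -0.28. Arhgef15, an endothelial exchange factor that binds Eph receptors, was 13.5 CPM in both libraries labelled AplnSense and 43.4 and 44.4 CPM in those labelled AplnAntiSense (-1.70 ± 0.17, edgeR adjusted p = 0.00434). Srgap1, a Rac and Cdc42 inactivator recruited by Robos, was 28.5 and 29.7 CPM against 76.4 and 95.0 CPM (-1.56 ± 0.16, adjusted p = 0.00437). Vav3, an exchange factor downstream of Eph receptors, gave -1.87 ± 0.21, and Dpysl2, a collapsin response mediator of semaphorin signaling, gave -1.39 ± 0.18. The other called genes were the kinases Fyn and Fes, Micall1 and the netrin receptor Dcc, whose values were 0.326 to 3.95 CPM. Nrp1, the coreceptor of Sema3a, was 48.6 to 119 CPM against 230 to 260 CPM (-1.55 ± 0.50, adjusted p = 0.172) and Nrp2 was 57.3 to 75.5 CPM against 78.1 to 110 CPM (-0.51 ± 0.21, adjusted p = 0.183), so neither was called. The count of 8 was 4 without AplnSense replicate 1, 10 without AplnSense replicate 2, 5 without AplnAntiSense replicate 1 and 12 without AplnAntiSense replicate 2.

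Several members followed single libraries rather than the groups. In 16 of the 62 tested members (10.9% of all genes tested), AplnSense replicate 2 and AplnAntiSense replicate 1 were both higher than the other 2 libraries, and in 3 (12.2% of all genes tested) both were lower. Slit3, a Slit made by mesenchymal cells, was 14.6 and 39.1 CPM in the libraries labelled AplnSense and 71.8 and 16.7 CPM in those labelled AplnAntiSense (-0.73 ± 1.05, edgeR adjusted p = 0.717). Sema5a, a transmembrane semaphorin with thrombospondin repeats, was 15.6 and 34.1 CPM against 44.1 and 14.1 CPM. Unc5c, a netrin receptor of neural and mesenchymal tissue, was 6.57 and 16.3 CPM against 28.3 and 12.7 CPM. The same libraries stood out each time, and the 7 fibroblast markers summed to 469 and 3017 CPM against 2993 and 626 CPM. Sema3d, a secreted semaphorin, was lower still, at 0.406 and 3.91 CPM against 4.19 and 0.726 CPM. The part of the fibroblast marker level in these values was not tested. The 8 mural markers summed to 261 and 429 CPM against 609 and 283 CPM, and none was called.

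**Figure D3:**
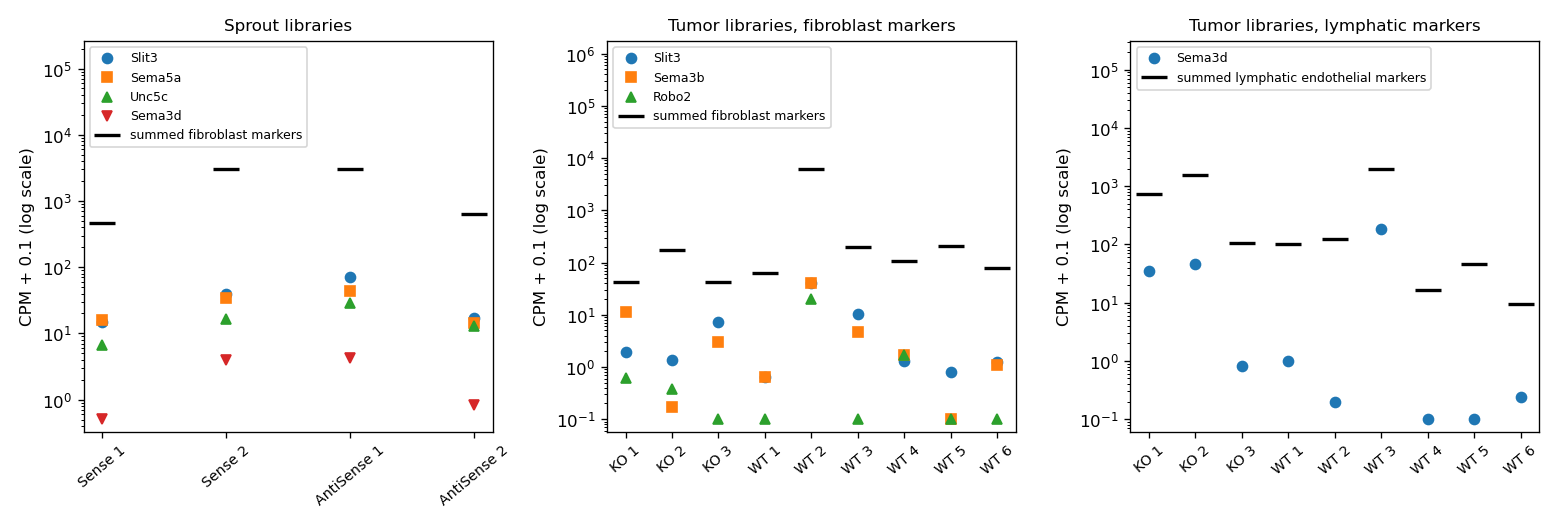
CPM plus 0.1 (y axis, log scale) by library (x axis) of members whose values follow a marker list, with horizontal marks for the summed markers. Slit3, Sema5a, Unc5c and Sema3d are highest in AplnSense replicate 2 and AplnAntiSense replicate 1, Slit3, Sema3b and Robo2 in Apelin WT replicate 2, and Sema3d in the 3 tumor libraries with the highest lymphatic sums.

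In tumor ECs, removal of Apelin left no guidance gene past the thresholds. Of the 66 members, 50 passed the count filter, and edgeR called 0 lower (0.00765% of all genes tested, which is Apln alone) and 0 higher (0% of all genes tested). At an unadjusted p below 0.05 there were 0 lower and 1 higher, beside 2.94% and 1.87% of all genes tested. DESeq2 also called none of the members, although it called 97 genes lower and 19 higher over the whole table (0.69% and 0.135% of the genes to which it gave an adjusted p). By sign, 25 members were lower and 25 higher, and the median log2 fold change was 0.01, compared with -0.03 over all genes tested. The 2 groups overlapped for each of the 50 members, a count near the share over all genes, of which 1.27% lay wholly below and 1.06% wholly above the Apelin WT libraries. Of the coreceptor and effector list, 60 were tested and 0 were called by edgeR or DESeq2, with 1 lower and 5 higher at an unadjusted p below 0.05, beside the same 2.94% and 1.87% of all genes tested. All 12 endothelial markers had fold changes above 0 in the Apelin KO libraries (sum 11028 to 14152 CPM, against 8392 to 12451 CPM). The 8 mural markers and the 6 fibroblast markers tested were all below 0 (sums 43.6 to 95.4 against 92.3 to 438.5 CPM, and, over all 7 listed fibroblast markers, 41.8 to 172 against 62.5 to 6125 CPM). None of these markers was called by edgeR, 1, 2 and 1 of them having an unadjusted p below 0.05, and their part in the tumor values was not tested. The 12 sprout genes were tested in the tumor set too, where 9 had a value above 0 and 3 below, beside 51.9% of all genes tested below 0. The 3 were Robo4 (-0.01), Plxnc1 (-0.07) and Sema6b (-0.08).

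The groups overlapped for each of the abundant tumor members, and none of them was called. Plxnd1 was 544, 571 and 665 CPM in the Apelin KO libraries and 356 to 644 CPM (median 504) in the Apelin WT libraries (0.21 ± 0.26, edgeR adjusted p = 1.00), so that only the highest Apelin KO library exceeded all controls. Robo4 was 390, 359 and 471 CPM against 342 to 478 CPM (median 408), with a log2 fold change of -0.01 ± 0.25. Efna1 was 528, 325 and 512 CPM against 122 to 520 CPM (median 291), with 0.52 ± 0.37. Sema3f ranged most among these 4, at 203, 637 and 216 CPM against 135 to 589 CPM (median 270), and its wide values occurred in both groups. Sema6d, the member with the lowest fold change in sprouts, was 203, 126 and 209 CPM against 71.2 to 166 CPM (median 120), with 0.60 ± 0.33 and an unadjusted p of 0.0869, and 2 of 3 Apelin KO libraries lay above every Apelin WT library. Unc5b was 213, 116 and 179 CPM against 37.5 to 179 CPM (median 136), with 0.39 ± 0.39.

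**Figure D4:**
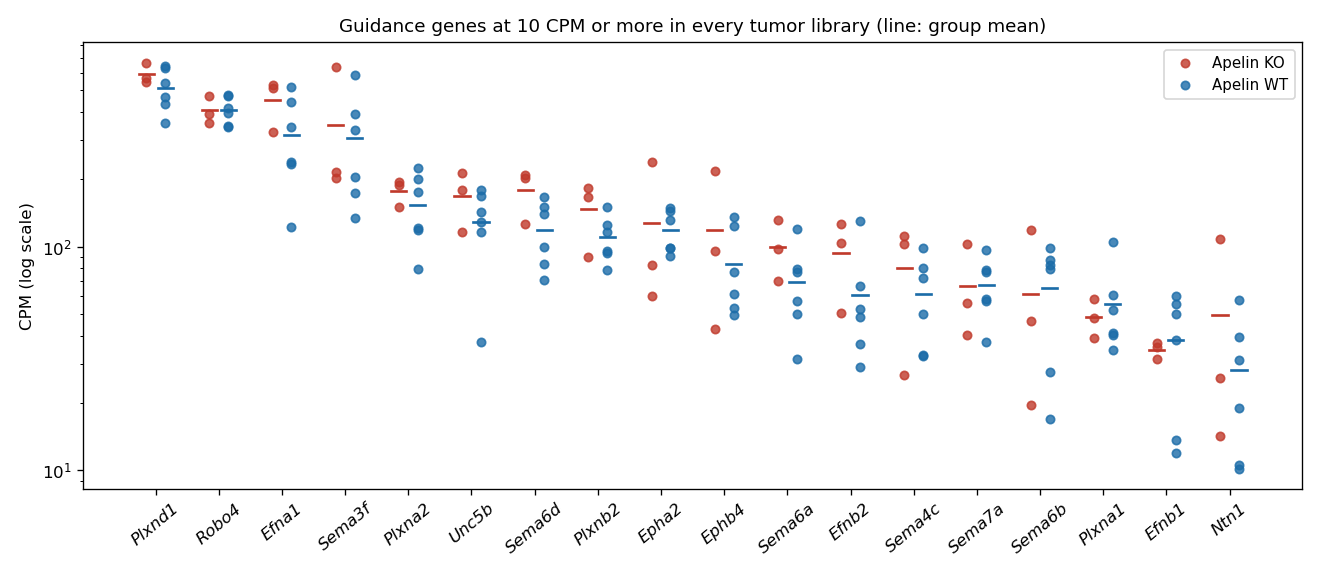
CPM (y axis, log scale) of the 18 guidance genes at 10 CPM or more in every tumor library (x axis), with a point per library and a line at the mean of the Apelin KO (n = 3) and Apelin WT (n = 6) groups. The groups overlap for each gene, from Plxnd1 at 356 to 665 CPM to Ntn1 at 10.1 to 108 CPM.

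Single libraries set several other tumor values. Epha2 was 83.1, 239 and 60.3 CPM in the Apelin KO libraries and 90.8 to 149 CPM (median 115) in the Apelin WT libraries, so that Apelin KO libraries held both the highest and the lowest values. Ephb4 was 43.0, 217 and 96.1 CPM against 49.6 to 136 CPM (median 69.1), and Ntn1 was 25.8, 108 and 14.3 CPM against 10.1 to 58.0 CPM (median 25.02). Replicate 2 of the Apelin KO group was the highest library for these 3 genes and for Sema3f, and without it the log2 fold changes turned from 0.10 to -0.74 for Epha2, from 0.51 to -0.26 for Ephb4, from 0.81 to -0.50 for Ntn1 and from 0.21 to -0.54 for Sema3f. Efnb2 was 50.6, 127 and 104 CPM against 28.8 to 131 CPM (median 50.5), with 0.63 ± 0.45. Sema6a was 97.4, 132 and 69.9 CPM against 31.4 to 121 CPM (median 67.3), and Sema7a was 56.2, 40.2 and 103 CPM against 37.3 to 96.4 CPM (median 67.8). The groups overlapped for these 3 genes.

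Among the 50 members tested in tumors, the smallest p was that of Sema3a, at 64.1, 82.7 and 9.14 CPM in the Apelin KO libraries and 2.25 to 38.6 CPM (median 8.15) in the Apelin WT libraries. The log2 fold change of 2.05 ± 0.80 had an unadjusted p of 0.0212 and an edgeR adjusted p of 0.957. It ran from 1.53 to 2.85 when 1 library was left out. Apelin KO libraries 1 and 2 were above every control and the remaining one was not. The 3 libraries highest in Sema3a, these 2 and Apelin WT replicate 3 (38.6 CPM), were also the 3 highest in summed lymphatic endothelial markers (728, 1575 and 1956 CPM, against 9.33 to 124 CPM in the others), and the part of these markers was not tested. Its sign was opposite to that in sprouts, which was not tested as a difference. Efna2, an A-type ephrin at low level, was 0.340, 0 and 1.46 CPM against 0.183 to 15.3 CPM (median 4.36), with -3.28 ± 1.63 and an unadjusted p of 0.0616, a value that ran from -5.20 to -2.68 when 1 library was left out. Sema4b was 5.27, 10.7 and 7.92 CPM against 3.47 to 31.0 CPM (median 18.4), with -1.17 ± 0.77 and an unadjusted p of 0.144.

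Slit3, Sema3b and Sema3d were low in most tumor libraries and high in a few. Slit3 and Sema3b, a class 3 semaphorin known as a tumor suppressor, were each 41.2 CPM in Apelin WT replicate 2, while the other tumor libraries held 0.548 to 10.1 CPM of Slit3 and 0 to 11.045 CPM of Sema3b. Robo2, a neural Slit receptor that was not tested, was 20.1 CPM in that library and at most 1.59 CPM elsewhere. The fibroblast markers summed to 6125 CPM there and to 41.8 to 206 CPM in the other 8 libraries. Sema3d was 34.3 CPM in Apelin KO replicate 1, 45.4 CPM in Apelin KO replicate 2 and 187 CPM in Apelin WT replicate 3, and at most 0.914 CPM in the other 6 libraries. The 3 lymphatic endothelial markers summed to 728, 1575 and 1956 CPM in the same 3 libraries and to 9.33 to 124 CPM in the others. The part of the marker levels in these values was not tested.

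Levels can be compared between genes once they are divided by transcript length. In tumor ECs, Efna1 had the highest level of all members, 317 ± 79.0 CPM per kb in the Apelin KO and 222 ± 103 CPM per kb in the Apelin WT libraries (mean ± SD, n = 3 and n = 6). Robo4 followed with 107 ± 15.2 and 107 ± 15.6 CPM per kb, Sema3f with 105 ± 73.8 and 91.2 ± 50.9, and Plxnd1 with 86.5 ± 9.29 and 74.7 ± 16.6. The range of Sema3f overlaps those of both neighbors in this order. By the mean over all 9 tumor libraries, Epha2, Unc5b, Sema6d, Ephb4 and Sema7a came next. In the Apelin WT libraries these had 30.7 ± 6.69, 22.2 ± 8.71, 20.5 ± 6.74, 19.4 ± 8.69 and 20.9 ± 6.45 CPM per kb, so that Sema7a lay above Sema6d and Ephb4 there, and neighbors in the order differed by less than the larger of their SDs. In sprout ECs the first place was held by Plxnd1, at 42.2 and 56.9 TPM (transcript abundance scaled to the library total) in the libraries labelled AplnSense and 266 and 184 TPM in those labelled AplnAntiSense. Unc5b was 43.1 and 62.8 TPM against 164 and 109 TPM, Efnb2 32.9 and 54.5 TPM against 157 and 133 TPM, and Efna1 22.5 and 36.1 TPM against 104 and 98.2 TPM. Epha2, at 89.1 and 82.6 TPM against 85.6 and 80.4 TPM, was the highest member in the libraries labelled AplnSense and ranked below Plxnd1, Unc5b, Efnb2 and Efna1 in those labelled AplnAntiSense. Within sprouts the leading order of these genes therefore differed between the groups.

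**Figure D5:**
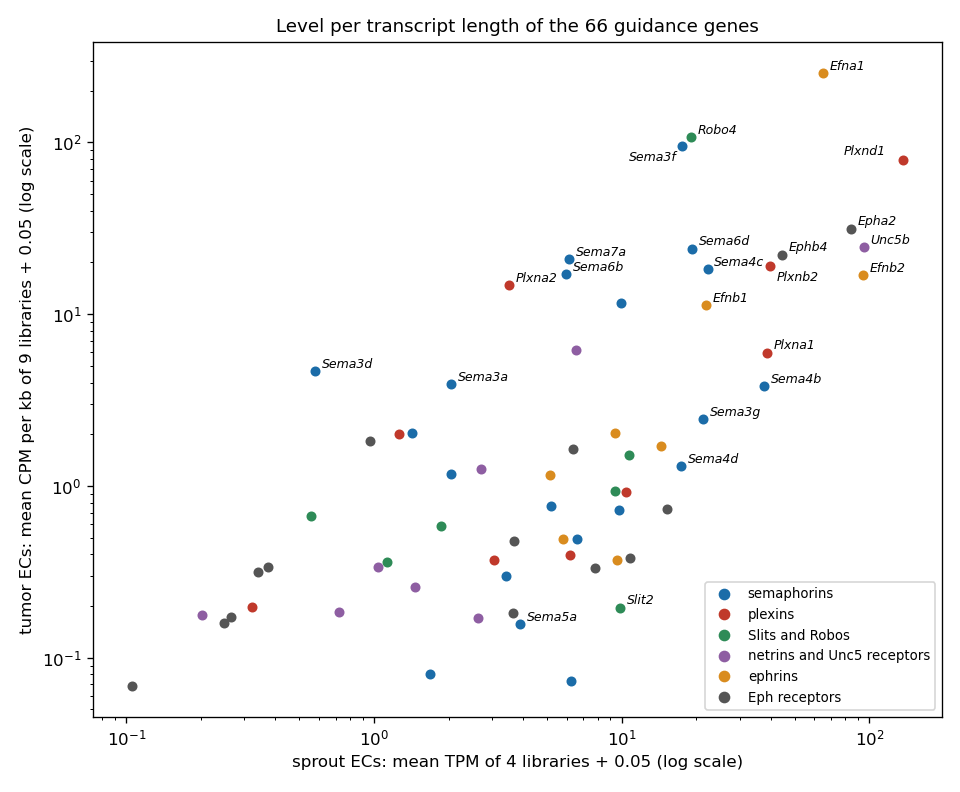
Mean level per transcript length of each of the 66 guidance genes in the 4 sprout libraries (x axis, TPM plus 0.05) and the 9 tumor libraries (y axis, CPM per kb plus 0.05), both on log scales and colored by class. Efna1, Plxnd1, Epha2, Unc5b and Ephb4 are high in both sets, Robo4 and Sema3f rank 2 and 3 in tumors but 14 and 15 in sprouts, and Plxna1 and Sema4b rank 8 and 9 in sprouts but 18 and 21 in tumors.

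Of the 10 highest members in each set, 6 were the same (Efna1, Epha2, Ephb4, Plxnb2, Plxnd1 and Unc5b), though the scales and protocols differ and no test was made across them. Robo4 and Sema3f ranked 2 and 3 of 66 in tumor ECs and 14 and 15 in sprout ECs. Conversely Plxna1 ranked 8 and Sema4b 9 in sprout ECs, compared with 18 and 21 in tumor ECs. These ranks are of the mean over all libraries of a set, and within sprouts Sema4b ranked 4 in the libraries labelled AplnSense and 12 in those labelled AplnAntiSense, and Plxna1 6 and 8. Plxna2 ranked 14 in tumor ECs and 42 in sprout ECs, and Sema7a ranked 9 and 34. At the low end, 16 members were not tested in tumor ECs and 4 in sprout ECs (Epha5, Epha6, Epha8 and Unc5d), and no member was at 0 in every library of a set. Sema3c, a guide of cardiac outflow vessels, was 3.12 and 4.81 CPM against 9.20 and 4.52 CPM in sprouts (-0.81 ± 0.43, edgeR adjusted p = 0.272) and at most 0.731 CPM in any tumor library. Slit2 was 0 to 3.29 CPM in tumor ECs, and Robo1 was 0.521 to 20.1 CPM.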

How the data were processed

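CD31+ sprout ECs (TruSeq, poly-A) and 100 sorted tumor ECs per library (Smart-Seq2) were sequenced by the study. For sprouts, the submitters' processing notes name STAR 2.5.0a, HTSeq 0.6.1p1 and RSEM 1.2.25 on mm10, and the authors deposited gene counts of uniquely aligned reads, together with RSEM expected counts, TPM and effective lengths. Between 54.1% and 59.1% of all counts deposited for a sprout library stood in rows that name no gene and were left out. For tumors, the authors deposited featureCounts gene counts (Subread 1.6.2, mm10). The notes name Bowtie2 2.3.4.1 as the aligner, whereas the methods name STAR. The strand setting is not given in the sources used here.

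Each set was fitted separately on all genes with edgeR 4.0.16 (TMM, filterByExpr with a minimum count of 10, robust quasi-likelihood test) in R 4.3.3, group as the sole term, with Benjamini-Hochberg adjusted p below 0.05 and a log2 fold change above 1 in size. The SE is the log2 fold change over the square root of F. CPM were computed on the TMM-scaled library totals. Floors cover counting error alone, whereas the SE includes the spread between libraries. Tumor levels per kb use the mean sprout effective length. DESeq2 1.42.0 (with its own filter), its size factors, 2 other count filters, a replicate block, no fold threshold, RSEM expected counts rounded to whole numbers, and leaving out each library were alternatives. The scripts were tested on simulated data.

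The members and lists were chosen with earlier results of these data known. Named genes are the called members, the highest member of each class per length, 18 fixed genes, the 5 smallest p values in tumors and the extremes of a class, and 30 gene and set pairs that were added after their values were seen. Gene positions are from GENCODE M21 (GRCm38, which is mm10), and upstream sequences from RefSeq (GRCm38.p6).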

Additional observations from a re-analysis of the deposited data

Results flagged for a closer look

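Within the Apelin WT group of 6 tumor libraries, 7 of the 31 named members had a library far from the others by Dixon's gap test. Ntn4 and Sema3c, among the 31, had missed the count filter. Chance alone flags about 1 in 20 groups, but 15.7% of all genes tested in tumors had such a library, and 10 of the 31 were named after their values were seen, so the count says nothing about the members. Replicate 2 held 131 CPM of Efnb2 (next highest 66.7), 27.1 CPM of Sema3g (next 10.4), and 41.2 CPM each of Slit3 (next 10.1) and Sema3b (next 4.52). The same library held the highest summed fibroblast markers (6125 CPM) and the highest arterial markers of the 9 tumor libraries (1886 CPM), and the part of either in these values was not tested. Replicate 3 held 38.6 CPM of Sema3a (next 15.3) and 187 CPM of Sema3d (next 0.914), beside the highest summed lymphatic markers (1956 CPM), whose part was likewise not tested. Replicate 1 held 7.13 CPM of Robo3 (next 1.39). A move one way in every tumor library and the opposite way in every sprout library could not be flagged, because the tumor groups overlapped for every member.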

How the results depend on the processing

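In tumor ECs, 0 members and 0 genes of the coreceptor and effector list were called under each alternative tried. In sprout ECs, the 12 members called lower were 15 with DESeq2, 14 without a count filter, 12 with a mean-count filter, 12 with DESeq2 size factors, 10 with RSEM estimated counts and 15 without the fold threshold, and 1 to 12 when a library was left out. The 0 called higher became 1 without the fold threshold (Sema3e) and 0 to 1 with a library left out (Sema4b, without AplnAntiSense replicate 2). The 8 effector genes became 4 to 12 with a library left out. The replicate numbers did not pair the libraries: the correlation of deviations was -0.43 between same-numbered sprout libraries and -0.14 to 0.06 in tumors, where own numbers were not always the best match. With the replicate block, 0 members and 0 effector genes were called in sprouts, and 41 lower and 3 higher over all genes. With crossed numbers, chosen after seeing the data, 16 members, 12 effector genes and 933 lower and 302 higher genes were called.

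Of the log2 fold changes of named members, none that was called turned sign. With a library left out, tumor values spanned -0.32 to 0.031 for Efnb1, -0.74 to 0.44 for Epha2, -0.26 to 0.91 for Ephb4, -0.50 to 1.26 for Ntn1, -0.36 to 0.085 for Plxna1, -1.19 to 0.14 for Robo1, -1.91 to 1.83 for Robo3, -0.13 to 0.072 for Robo4, -2.47 to 1.58 for Sema3b, -0.87 to 0.33 for Sema3d, -0.54 to 0.50 for Sema3f, -1.54 to 0.84 for Sema3g, -0.99 to 0.34 for Sema6b, -0.49 to 0.23 for Sema7a and -2.55 to 0.33 for Slit3. With the replicate block, Epha2 was -0.24, Sema3g -1.34 and Sema3d 4.26 in tumors. Sprout values spanned -0.47 to 0.21 for Efnb1, -0.21 to 0.066 for Ephb3, -0.28 to 0.075 for Ntn1, -0.39 to 0.12 for Plxnb1, -0.53 to 0.29 for Plxnb2, -1.46 to 0.11 for Robo2, -2.62 to 1.53 for Sema3d, -0.92 to 0.81 for Sema5a and -1.63 to 0.68 for Slit3. Without a change of sign, they spanned -2.31 to -1.19 for Plxna4, -2.52 to -1.28 for Sema3g and -2.11 to -0.94 for Sema7a. The causes were not tested. Where a sprout library was left out, the lone library of its group was assumed to vary like the other group. The sprout groups held 2 libraries each, and 3 counts corresponded to 0.211 to 0.596 CPM in tumor libraries. The smallest difference detectable at this depth was not measured.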
